A study of Mus musculus with 8 samples.

Results

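Immediate early genes are switched on within minutes of a stimulus, without new protein synthesis, because their promoters are held ready by factors such as serum response factor and CREB. Their products are transcription factors of the AP-1, EGR, NR4A and KLF families, which drive later waves of transcription, and feedback proteins that shut the signal down by destroying messenger RNA or removing phosphate from kinases. Heat shock genes answer to unfolded protein through heat shock factor. Both sets are well known to be induced while solid tissue is digested and cells are sorted, so in sorted stromal cells they report on handling as well as on life in the marrow.

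The genes described here are 30 immediate early and heat shock genes, taken by symbol from the 52636 genes of a bulk polyA RNA count matrix. All 30 were found and fall into 6 classes: 7 AP-1 genes, 3 EGR genes, 3 NR4A genes, 3 KLF genes, 5 heat shock genes, and 9 feedback and other early response genes. The libraries came from C57BL/6 mouse bone marrow mesenchymal stem cells sorted as positive for the leptin receptor (LEPR+), the perivascular stromal cells that feed blood stem cells. One group of 4 libraries came from mice given LTβR-Ig, a soluble decoy that captures the ligands of the lymphotoxin β receptor. The other 4 came from mice given a control IgG1 against hen egg lysozyme. Both were given intravenously at 150 μg, 1 dose a week for 3 weeks. The series is described as 4 pairs, with no account of how libraries were paired. The labels give neither age nor sex, and name no mouse per library, so each p-value reflects only how these libraries vary, which may be technical.

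All 8 libraries went through the same digestion, with collagenase IV at 200 U/ml for 30 min at 37 °C, then magnetic depletion and a pair of live sorts that excluded CD45, Ter119, CD31 and CD144. No library made without digestion was analysed here, so levels before and after handling cannot be told apart. Libraries held from 52378101 to 64403177 counts in all. The labelled cell type carried its markers in every library, with Lepr between 3155 and 4492 CPM (each gene's count relative to the TMM-scaled library total) and Cxcl12 between 13374 and 21762 CPM. Genes of the gate were low but present, with Cdh5, which encodes CD144, at 1.17 to 20.9 CPM, Ptprc, which encodes CD45, at 21.7 to 61.0 CPM and Pecam1, which encodes CD31, at 4.04 to 44.3 CPM. In bulk RNA, fewer cells of a type and less RNA per cell cannot be told apart.

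Early response genes are compact. The 29 members that passed the low-count filter had a median gene span of 4.24 kb, against 24.2 kb over 13338 protein-coding genes tested. Spans under 10 kb were found for 23 of the 29, against 24.4% of those protein-coding genes. The 30 genes lie on 15 chromosomes, with 5 on chromosome 8 (Junb, Jund, Klf2, Dnajb1 and Ier2) and 4 on chromosome 17 (Hspa1a, Hspa1b, Ier3 and Dusp1).

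RefSeq promoter windows on GRCm38.p6 were found for 26 of the 30 genes, and Egr1, Egr3, Hsp90aa1 and Ier2 had no entry. The 250 bases before the start were searched on both strands. The letters TGACG, the core of the cAMP response element, stood in 16 of 31 windows and in 14 genes (51.6% of windows), against 17.8% of all 32851 windows. The full element TGACGTCA, which contains that core, stood in 2 windows, those of Btg2 and Dusp1 (6.45% against 1.55% of all windows). A CArG box, the site of serum response factor, stood in 5 windows, 4 of Egr2 and 1 of Zfp36 (16.1% against 1.47%). The heat shock factor letters GAANNTTC or TTCNNGAA stood in 6 windows, of Hspa1a, Hspa1b, Hspb1, Egr2, Fosl2 and Jun (19.4% against 12.8%). The AP-1 letters TGANTCA stood in none, against 6.75% of all windows. Several windows of Egr2 overlap, so windows are not independent, and a match is a description of letters only.

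The windows of Fos, Nr4a1 and Hspb1 are shown because these genes carry results on spread between libraries or on group differences. Those of Hspa1a and Hspa1b are shown because the pair can hardly be told apart. Also shown is the window of Btg2, which holds the full TGACGTCA. None overlaps an annotated exon; that of Nr4a1 lies in an intron of its longer transcripts. Capitals mark TGACG and its complement CGTCA, TGACGTCA, and the heat shock factor letters.
Fos, chr12:85473640-85473889, plus strand: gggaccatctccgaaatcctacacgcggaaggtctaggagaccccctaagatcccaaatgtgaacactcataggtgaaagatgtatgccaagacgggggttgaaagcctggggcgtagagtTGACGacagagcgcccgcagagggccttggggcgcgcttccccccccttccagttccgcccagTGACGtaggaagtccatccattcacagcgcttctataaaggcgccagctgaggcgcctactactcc
Nr4a1, chr15:101266596-101266845, plus strand: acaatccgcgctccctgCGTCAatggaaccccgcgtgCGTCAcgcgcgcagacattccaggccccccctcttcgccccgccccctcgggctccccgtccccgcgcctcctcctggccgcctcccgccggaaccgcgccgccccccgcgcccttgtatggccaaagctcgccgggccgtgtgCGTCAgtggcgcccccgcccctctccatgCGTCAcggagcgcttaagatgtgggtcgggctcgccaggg
Btg2, chr1:134079156-134079405, minus strand: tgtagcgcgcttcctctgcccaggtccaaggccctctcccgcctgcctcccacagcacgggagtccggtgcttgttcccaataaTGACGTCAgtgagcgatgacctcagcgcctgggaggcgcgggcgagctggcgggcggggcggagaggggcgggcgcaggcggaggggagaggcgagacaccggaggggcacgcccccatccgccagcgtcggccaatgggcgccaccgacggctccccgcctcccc
Hspb1, chr5:135887669-135887918, plus strand: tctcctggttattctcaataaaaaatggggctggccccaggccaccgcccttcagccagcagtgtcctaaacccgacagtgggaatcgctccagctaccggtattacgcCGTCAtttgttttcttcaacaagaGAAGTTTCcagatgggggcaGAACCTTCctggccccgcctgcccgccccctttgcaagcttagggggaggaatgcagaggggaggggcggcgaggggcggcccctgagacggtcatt
Hspa1a, chr17:34972157-34972406, minus strand: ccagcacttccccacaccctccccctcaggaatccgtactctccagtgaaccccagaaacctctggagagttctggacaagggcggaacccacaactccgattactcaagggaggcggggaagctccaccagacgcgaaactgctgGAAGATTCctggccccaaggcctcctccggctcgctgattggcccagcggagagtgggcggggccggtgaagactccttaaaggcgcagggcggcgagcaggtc
Hspa1b, chr17:34959239-34959488, minus strand: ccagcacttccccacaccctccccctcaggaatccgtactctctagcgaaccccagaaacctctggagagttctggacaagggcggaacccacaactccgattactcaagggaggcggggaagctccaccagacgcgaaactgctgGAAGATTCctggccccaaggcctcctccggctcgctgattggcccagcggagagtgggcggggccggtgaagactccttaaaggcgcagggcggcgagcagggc
The windows of Hspa1a and Hspa1b were identical at 247 of 250 positions (98.8%), and each holds the heat shock factor letters once. Their longest transcripts shared 86.8% of aligned positions with an identical run of 638 bases, longer than a read of 76 bases, so reads of these paralogs may be split or lost by the counting. The 2 heat shock factor matches of Hspb1 and the 2 TGACG matches of Fos, with 4 in Nr4a1, stand out in capitals.

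**Figure D1:**
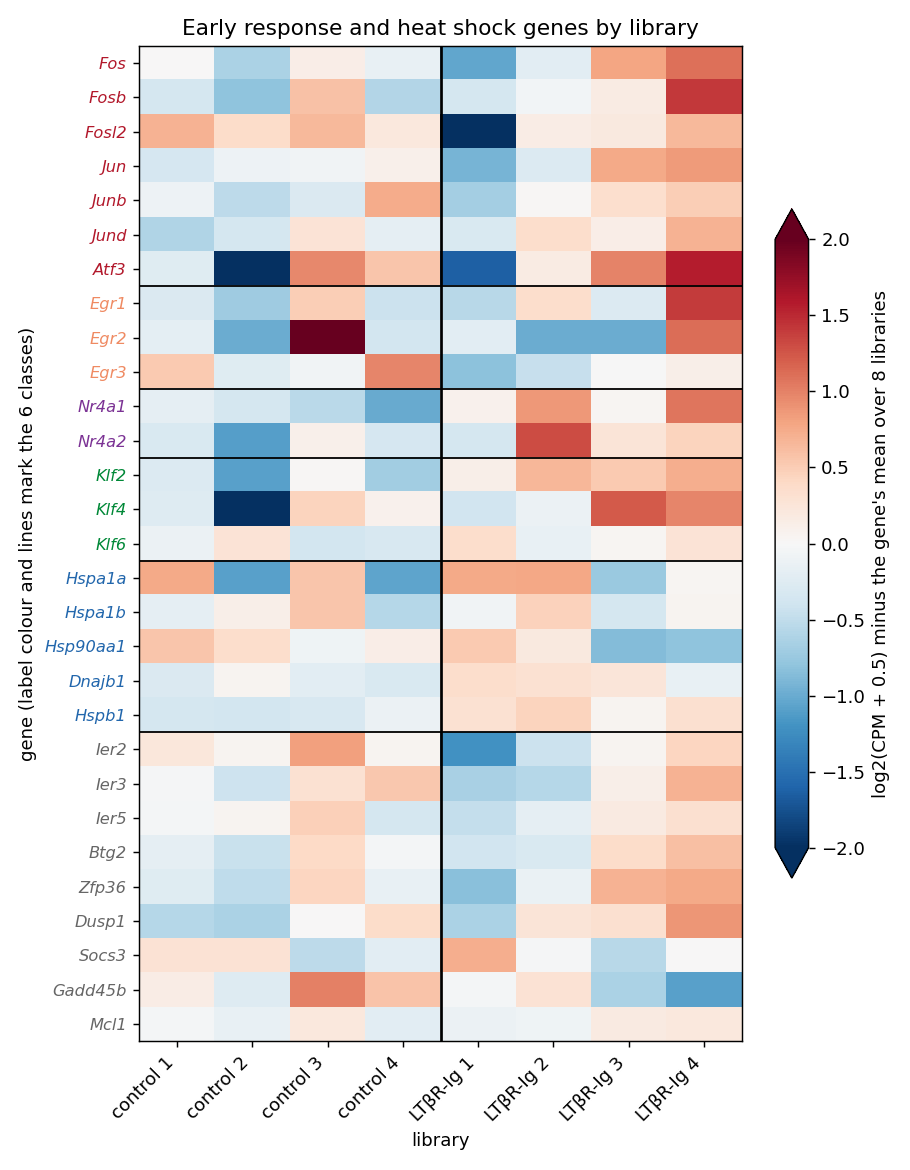
Heat map of 29 members (rows, grouped by class) in 8 libraries (columns). Colour gives log2(CPM + 0.5) minus the gene's own mean over the 8 libraries, with the scale ending at -2 and 2. LTβR-Ig replicate 4 is red for most AP-1 genes and LTβR-Ig replicate 1 is blue, while Hsp90aa1 runs the other way.

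None of the 29 members tested was called between LTβR-Ig and control in the edgeR quasi-likelihood fit, with p-values adjusted (Benjamini-Hochberg) over 16045 genes, of which 0.0374% were called. The smallest edgeR adjusted p among members was 0.433. On the same genes DESeq2 (1.25% of genes called) and limma-voom (0.106%) also called 0 members. DESeq2 without the low-count filter, a setting added after the data were seen, called 3 members, Nr4a1, Klf2 and Hspb1 (adjusted p = 0.0356, 0.0424 and 0.0381), and 1.30% of 25923 genes. Without its independent filtering as well, DESeq2 called 1 member, Nr4a1. At an unadjusted edgeR p under 0.05, 4 members were higher with LTβR-Ig (Nr4a1, Klf2, Dnajb1 and Hspb1) and 0 lower, against 3.39% and 2.93% of all genes, 6.32% in both directions. Of the 29 members 21 had a log2 fold change above 0, against 49.7% of all genes. The median over the members was 0.33, against 0.00 over all genes tested. The groups did not overlap for 3 members, Nr4a1, Klf2 and Hspb1, all higher with LTβR-Ig, against 2.36% of genes higher and 2.53% lower (4.89% in all). Nr4a1 and Klf2 kept an unadjusted edgeR p under 0.05 when each library was left out in turn. Dnajb1 kept it only without control replicate 2 or LTβR-Ig replicate 4, and Hspb1 only without control replicate 4 or LTβR-Ig replicate 3. Klf6 reached it without control replicate 2, and Fos and Dusp1 without LTβR-Ig replicate 1. The count of 4 was 2 without control replicate 1, control replicate 3 or LTβR-Ig replicate 2.

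**Figure D2:**
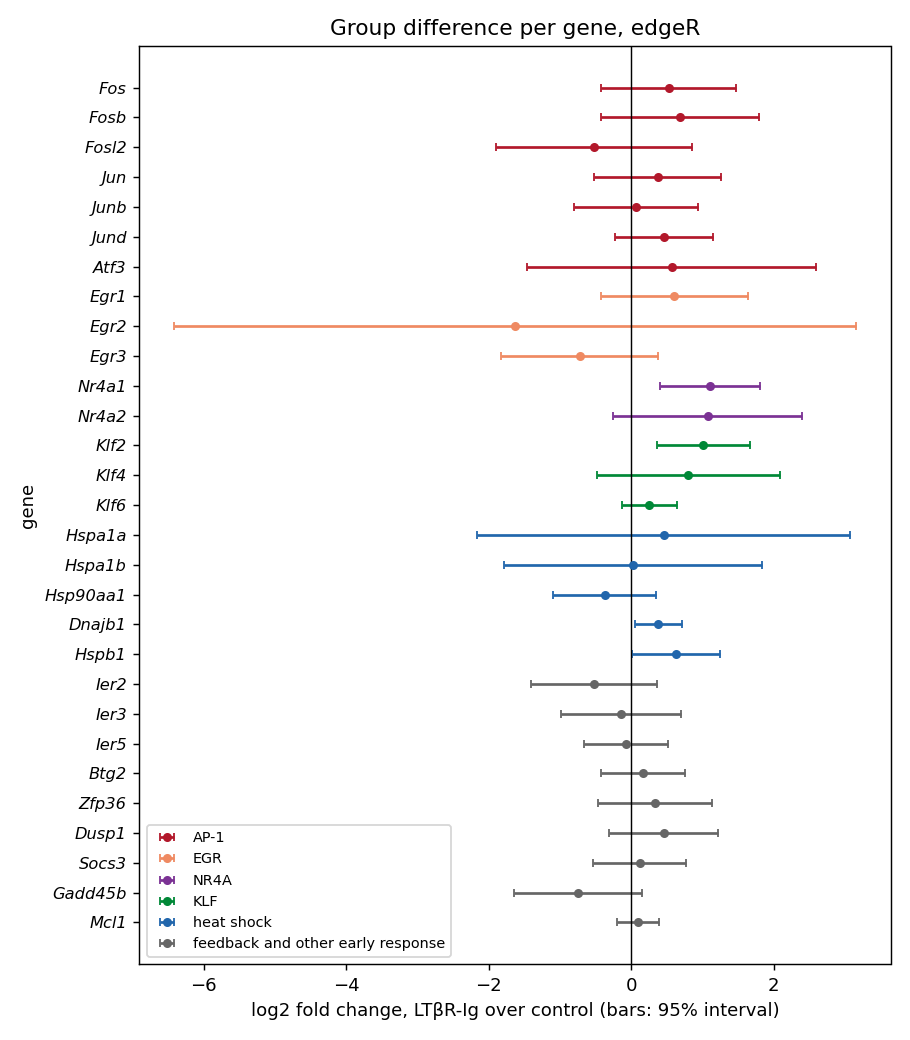
Log2 fold change of LTβR-Ig over control for 29 members (points) with 95% intervals (bars), coloured by class. The intervals of Nr4a1, Klf2, Dnajb1 and Hspb1 lie above 0, and that of Egr2 runs from -6.42 to 3.16.

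The NR4A genes encode orphan nuclear receptors that bind DNA without a known hormone. Nr4a1 (ENSMUSG00000023034.6, chromosome 15, 101254269 to 101274795, plus strand, in mm10) was at 15.8, 13.98, 12.1 and 8.67 CPM in control replicates 1 to 4. It was at 19.0, 33.1, 18.5 and 38.2 CPM in LTβR-Ig replicates 1 to 4. Every LTβR-Ig library lay above every control library, with replicates 2 and 4 well above the other LTβR-Ig libraries. The means were 12.6 ± 3.04 and 27.2 ± 9.98 CPM (SD, n = 4 each), and the log2 fold change was 1.10 (SE 0.31, 95% bounds 0.41 and 1.80, edgeR adjusted p = 0.433). Over 16 alternatives its log2 fold change ran from 0.90 to 1.26 and its adjusted p from 0.0356, with DESeq2 on unfiltered genes, to 0.781.

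Nr4a2 was scarcer, at 1.75, 0.808, 2.49 and 1.70 CPM in control and 1.68, 6.37, 2.84 and 3.32 CPM in LTβR-Ig libraries. LTβR-Ig replicate 2 held the top value and LTβR-Ig replicate 1 lay inside the control range, so the groups overlapped. Its log2 fold change was 1.07 (SE 0.59, edgeR adjusted p = 0.921), and 0.63 without LTβR-Ig replicate 2. Nr4a3 did not pass the filter and was not tested. It had 7, 7, 0 and 234 counts in control and 0, 42, 0 and 49 counts in LTβR-Ig libraries. Almost all its control signal came from replicate 4. Summed over the class, NR4A genes took 14.4 to 17.7 CPM in control and 20.7 to 42.5 CPM in LTβR-Ig libraries, without overlap. Nr4a1 makes up most of that sum. Macrophage markers, which belong to cells that also express Nr4a1, had log2 fold changes above 0 for 8 of 10 with a median of 0.23, and their sum overlapped between groups at 969 to 2298 CPM in control and 1058 to 2753 CPM in LTβR-Ig libraries. Their part in the result was not tested.

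KLF genes encode zinc finger factors; Klf2 and Klf4 are known for keeping endothelium and immune cells quiescent, and Klf6 is a broadly expressed wound response factor. Klf2 (ENSMUSG00000055148.7, chromosome 8, 72319033 to 72321656, plus strand) was at 11.996, 6.63, 14.9 and 8.81 CPM in control libraries. It was at 16.0, 23.5, 21.2 and 24.6 CPM in LTβR-Ig libraries. The highest control library, replicate 3, lay just under the lowest LTβR-Ig library, replicate 1. The means were 10.6 ± 3.63 and 21.3 ± 3.82 CPM (SD, n = 4 each). The fitted log2 difference was 1.01 (SE 0.29, 95% bounds 0.36 and 1.66, edgeR adjusted p = 0.454). Its log2 fold change over 16 alternatives ran from 0.85 to 1.23, with an adjusted p from 0.0424 (DESeq2 on unfiltered genes) to 0.779.

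Endothelial markers, of cells known for Klf2, had log2 fold changes above 0 for 9 of 9 with a median of 0.75 and none called. They summed to 71.4, 67.0, 91.1 and 116 CPM in control and 49.8, 83.9, 236 and 121 CPM in LTβR-Ig libraries. LTβR-Ig replicate 1 had the lowest endothelial sum of the 8 while its Klf2 lay above all controls; the part of these markers in the result was not tested.

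Klf4 spread widely, at 10.3, 2.74, 17.1 and 13.2 CPM in control and 9.44, 11.4, 29.7 and 24.9 CPM in LTβR-Ig libraries. Control replicate 2 was far below the rest and LTβR-Ig replicates 3 and 4 above them. Its log2 fold change was 0.80 (SE 0.57, edgeR adjusted p = 0.987), or 0.48 when control replicate 2 was left out and 0.50 when LTβR-Ig replicate 3 was. Klf6, the most abundant of the 3 per kilobase of exon, lay between 141 and 232 CPM with overlapping groups and a log2 fold change of 0.25 (SE 0.17, edgeR adjusted p = 0.974).

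**Figure D3:**
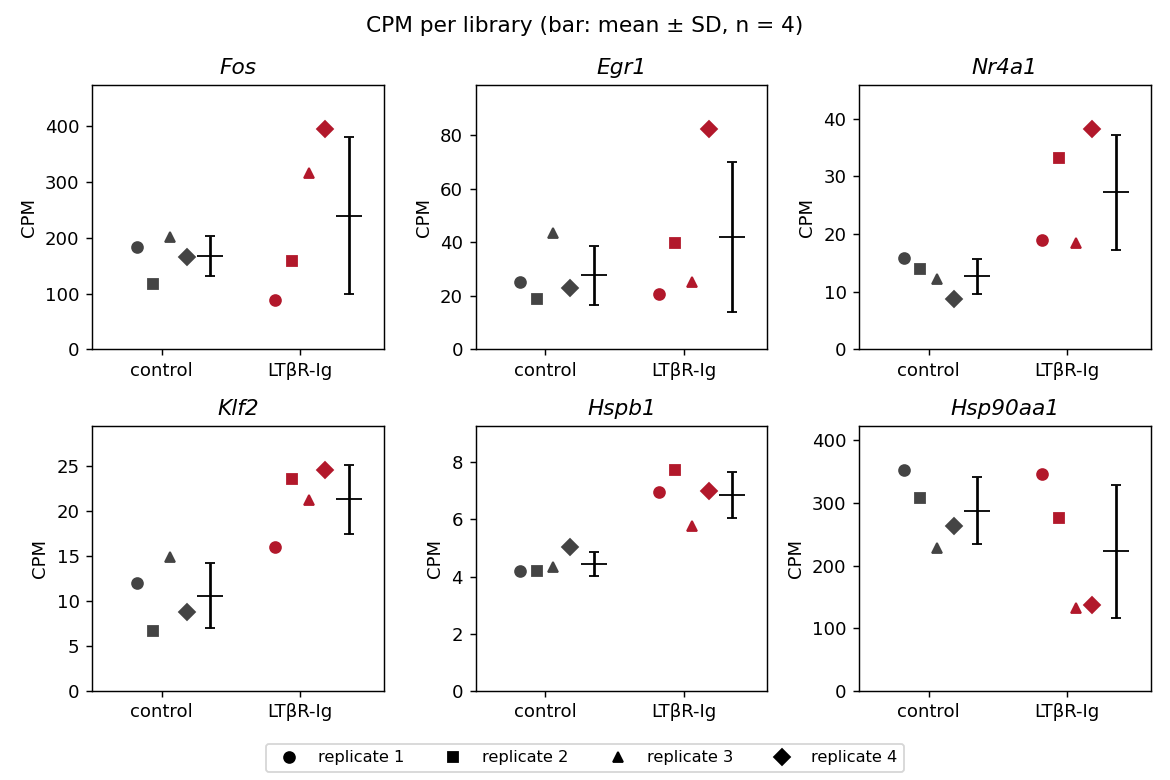
CPM of 6 members in each library (markers give the replicate) with the group mean ± SD (bars, n = 4). Nr4a1, Klf2 and Hspb1 do not overlap between groups, whereas Fos runs from 89.1 to 395 CPM within LTβR-Ig libraries alone.

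AP-1 is a dimer of Fos and Jun family proteins, and Atf3 is a stress-induced partner. Fos (ENSMUSG00000021250.13, chromosome 12, 85473890 to 85477273, plus strand) was the most abundant of the 7 AP-1 genes, also per kilobase of exon, at a mean of 70.9 CPM per kb in control libraries. It was at 184, 117, 201 and 165 CPM in control replicates 1 to 4 and at 89.1, 159, 315 and 395 CPM in LTβR-Ig replicates 1 to 4. Both ends of the range lay in the LTβR-Ig group, with replicate 1 lowest and replicate 4 highest of all 8 libraries. The means were 167 ± 36.0 and 240 ± 140 CPM (SD, n = 4 each). The fitted log2 difference was 0.52 (SE 0.42, 95% bounds -0.42 and 1.46, edgeR adjusted p = 0.9996). Without LTβR-Ig replicate 1 the log2 fold change of Fos was 0.80, and without LTβR-Ig replicate 4 it was 0.17.

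Fosb, a close relative of Fos, was at 7.15, 5.08, 14.1 and 6.01 CPM in control and 7.14, 8.93, 10.4 and 25.5 CPM in LTβR-Ig libraries. Only LTβR-Ig replicate 4 lay above control replicate 3. Jun, the main partner of Fos, was at 11.5, 13.7, 14.02 and 15.9 CPM in control and 7.44, 12.1, 25.1 and 26.8 CPM in LTβR-Ig libraries. The controls were close together, and the LTβR-Ig libraries lay on both sides of them. Jund, often the Jun family member of resting cells, was at 7.02, 8.43, 13.3 and 9.56 CPM in control and 8.72, 13.999, 12.01 and 18.0 CPM in LTβR-Ig libraries, with overlap. It had the smallest p of the class (log2 fold change 0.46, SE 0.30, edgeR adjusted p = 0.962). Without LTβR-Ig replicate 4 the log2 fold change of Fosb went from 0.68 to 0.13, that of Jun from 0.37 to 0.11 and that of Jund to 0.27.

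Junb was at 8.90, 6.54, 7.77 and 16.5 CPM in control and 5.78, 9.82, 12.2 and 13.7 CPM in LTβR-Ig libraries. Control replicate 4 was the highest of the 8, and the log2 fold change was 0.06. Part of Junb overlaps Prdx2 on the opposite strand, and Jun overlaps Junos; strand use in counting is not given in the sources used here, so such reads cannot be told apart. Atf3 varied most of the 7 AP-1 genes within the groups (SD 1.74 on the log2 scale), at 3.89, 0.503, 9.64 and 7.14 CPM in control and 1.18, 5.33, 9.81 and 14.9997 CPM in LTβR-Ig libraries. Each group held 1 library near 1 CPM or below and others near 10 CPM, and the log2 fold change was 0.57 (SE 0.89, edgeR adjusted p = 0.9996). It was 0.039 without LTβR-Ig replicate 4, 0.19 without control replicate 2, 0.93 without LTβR-Ig replicate 1 and 1.03 without control replicate 3.

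Fosl2, which encodes Fra-2, was the exception in direction. It was at 35.5, 28.2, 34.1 and 25.1 CPM in control and 2.41, 24.1, 24.7 and 34.4 CPM in LTβR-Ig libraries, with a log2 fold change of -0.52 (SE 0.61, edgeR adjusted p = 0.9996). LTβR-Ig replicate 1 had 149 counts, and LTβR-Ig replicates 2 to 4 had 1279 to 1769. Leaving that library out brought the log2 fold change to the top of its range over the alternatives, -0.14.

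The AP-1 genes shared an order of libraries under LTβR-Ig. Within the LTβR-Ig group replicate 4 was highest and replicate 1 lowest for 7 of 7 AP-1 genes, where each library was highest for 24.0 to 26.1% and lowest for 22.2 to 27.7% of all genes tested. Within controls replicate 3 was highest for 4 of 7 and replicate 2 lowest for 4 of 7, against 26.3% and 22.8% of all genes tested. These libraries were singled out after their values were seen. Summed AP-1 expression was 258, 180, 294 and 245 CPM in control and 122, 233, 410 and 528 CPM in LTβR-Ig libraries. The lowest and highest sums both lay in the LTβR-Ig group.

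EGR genes encode zinc finger factors that bind GC-rich sites downstream of growth factor signals. Egr1 was at 25.3, 18.7, 43.7 and 22.8 CPM in control and 20.9, 39.8, 25.4 and 82.4 CPM in LTβR-Ig libraries. LTβR-Ig replicate 4 lay far above the rest, and the other 3 fell within the control range. Its log2 fold change was 0.61 (SE 0.45, edgeR adjusted p = 0.995), and 0.05 without that library. Egr3 was at 4.71, 2.58, 2.94 and 6.63 CPM in control and 1.55, 2.13, 3.10 and 3.42 CPM in LTβR-Ig libraries. The groups overlapped, with a log2 fold change of -0.72 (SE 0.48, edgeR adjusted p = 0.971), so Egr1 and Egr3 pointed opposite ways without passing the test.

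Egr2, best known for the myelin programme of Schwann cells, had 23, 0, 314 and 16 counts in control and 22, 0, 0 and 85 counts in LTβR-Ig libraries. A count of 0 allows up to 0.0457 to 0.0583 CPM in these libraries at 3 counts per library, a limit for counting error only. Most of its counts came from control replicate 3. Its log2 fold change of -1.63 (SE 2.11, edgeR adjusted p = 0.9996) was 1.24 without that library, and DESeq2 gave no p for it.

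Heat shock genes were led by Hsp90aa1, the inducible cytosolic HSP90 chaperone, at a mean of 73.2 CPM per kb in control libraries. It was at 352, 309, 227 and 263 CPM in control and 346, 275, 132 and 137 CPM in LTβR-Ig libraries. LTβR-Ig replicates 3 and 4, the libraries with the most Fos, held the least Hsp90aa1. Its log2 fold change was -0.37 (SE 0.32, 95% bounds -1.09 and 0.35, edgeR adjusted p = 0.9996). With the replicate number as a block Hsp90aa1 had an unadjusted edgeR p of 0.0435 and an adjusted p of 0.741.

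Dnajb1, an HSP40 cochaperone (ENSMUSG00000005483.10, chromosome 8, 83608193 to 83612653, plus strand), was at 73.2, 93.2, 77.0 and 72.6 CPM in control libraries. It was at 114, 111, 106 and 80.7 CPM in LTβR-Ig libraries. LTβR-Ig replicates 1 to 3 lay above all controls, and replicate 4 lay below control replicate 2. The log2 fold change was 0.38 (SE 0.14, 95% bounds 0.06 and 0.71, edgeR adjusted p = 0.671). Hspb1, the small heat shock protein HSP27 (ENSMUSG00000004951.10, chromosome 5, 135887919 to 135889563, plus strand), was at 4.21, 4.18, 4.33 and 5.04 CPM in control and 6.96, 7.73, 5.78 and 7.01 CPM in LTβR-Ig libraries. The groups were tight and did not overlap, at 4.44 ± 0.407 and 6.87 ± 0.808 CPM (SD, n = 4 each). The log2 fold change was 0.63 (SE 0.27, 95% bounds 0.01 and 1.25, edgeR adjusted p = 0.777), and over 16 alternatives it ran from 0.57 to 0.71, with an adjusted p from 0.0381 (DESeq2 on unfiltered genes) to 0.9997. With the replicate number as a block the unadjusted edgeR p of Hspb1 was 0.101.

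The classic stress-induced HSP70 genes had low counts. Hspa1a was at 1.56, 0.0762, 1.28 and 0.0852 CPM in control and 1.55, 1.58, 0.229 and 0.758 CPM in LTβR-Ig libraries, from 5 to 98 counts. Hspa1b was at 0.187 to 0.997 CPM in control and 0.299 to 0.904 CPM in LTβR-Ig libraries. Added into 1 row, the pair was at 1.96, 0.686, 2.28 and 0.273 CPM in control and 2.02, 2.49, 0.528 and 1.32 CPM in LTβR-Ig libraries, with a log2 fold change of 0.29 (SE 0.85, edgeR adjusted p = 0.9995). High and low libraries stood in both groups. Reads that match both genes may have been lost by the counting, and adding the rows cannot bring those back. The low counts therefore do not settle how much HSP70 messenger RNA was present.

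The feedback and other early response class holds genes for proteins that end the early response, together with other early response genes. The 9 members had a median log2 fold change of 0.09, from -0.75 to 0.45 (median -0.034 without LTβR-Ig replicate 4), with 5 above and 4 below 0 and overlapping groups for all 9. Btg2, an antiproliferative factor that recruits deadenylases, was highest per kilobase of all 30 genes in control libraries, at 82.5 CPM per kb. Btg2 was at 204, 169, 307 and 225 CPM in control and 177, 187, 299 and 352 CPM in LTβR-Ig libraries. Zfp36, tristetraprolin, which destroys AU-rich messenger RNA, was at 173, 145, 277 and 184 CPM in control and 115, 187, 333 and 346 CPM in LTβR-Ig libraries. Dusp1, a phosphatase that switches off MAP kinases, was at 46.7, 44.7, 69.6 and 89.5 CPM in control and 44.5, 83.1, 86.4 and 129 CPM in LTβR-Ig libraries. For each of these 3 genes LTβR-Ig replicate 4 was the highest of the 8 libraries, and their log2 fold changes were 0.16, 0.33 and 0.45, or -0.034, 0.12 and 0.19 without that library. The annotated span of Dusp1 overlaps Ergic1 on the opposite strand and 2 unnamed genes on its own.

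Gadd45b, a stress sensor and known NF-κB target, ran against them. It was at 12.3, 9.24, 22.9 and 16.9 CPM in control and 10.9, 13.7, 7.01 and 4.99 CPM in LTβR-Ig libraries. LTβR-Ig replicate 4 held the lowest value of the 8, and control replicate 3 the highest. It had the smallest p and the largest spread of its class, with a log2 fold change of -0.75 (SE 0.40, edgeR adjusted p = 0.906) and a range of -1.01 to -0.48 over 16 alternatives, the latter without control replicate 3. Socs3, the feedback inhibitor of cytokine receptors, was at 148, 148, 84.0 and 105 CPM in control and 202, 120, 82.8 and 122 CPM in LTβR-Ig libraries. Its top value was in LTβR-Ig replicate 1, the library where most AP-1 genes were lowest.

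Ier2, an early transcriptional regulator, was at 12.4, 10.8, 18.9 and 10.9 CPM in control and 4.22, 7.61, 10.9 and 14.3 CPM in LTβR-Ig libraries, with a log2 fold change of -0.52. Ier3, a survival factor, lay between 7.59 and 20.1 CPM and Ier5, a regulator of heat shock factor, between 12.1 and 23.9 CPM, both with overlap and log2 fold changes of -0.14 and -0.08. Mcl1, a survival protein of the BCL2 family, was the steadiest of the class, from 90.1 to 121 CPM, with a log2 fold change of 0.09 (95% bounds -0.21 and 0.40).

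**Figure D4:**
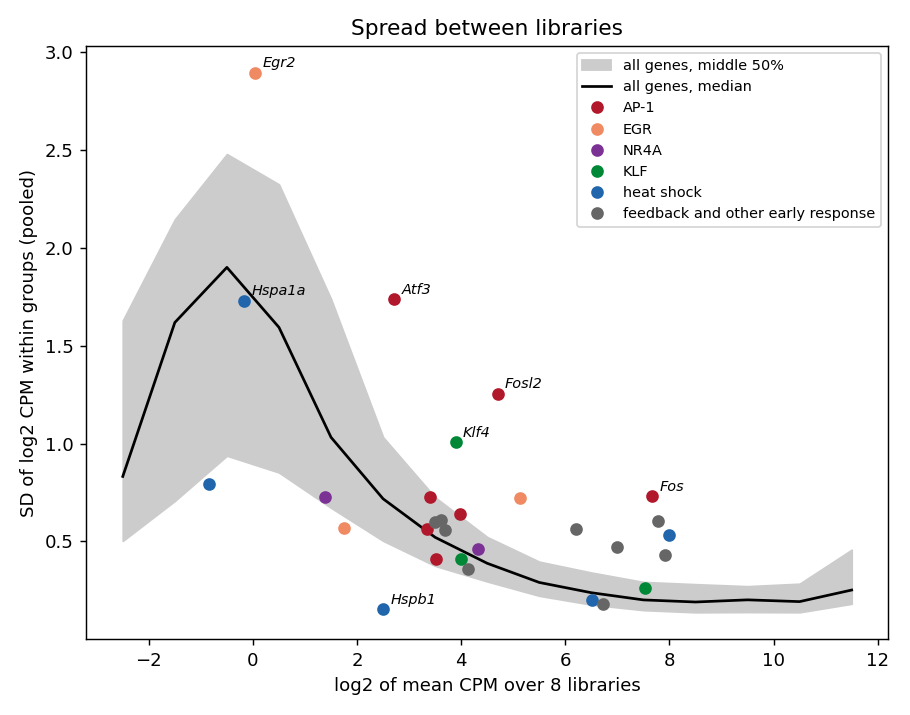
Within-group SD of log2 CPM (pooled over both groups) against the log2 of mean CPM for 29 members (points by class), with the median (line) and middle 50% (grey) of all genes at that level. Fos lies at 0.73 and Hspb1 at 0.15.

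Libraries given the same treatment varied widely for many members. The pooled within-group SD of log2 CPM had a median of 0.57 over the members and 0.46 over all genes tested. It exceeded the median gene's for 21 of 29 members, and the median of genes at the same level, in bins of 1 log2 unit, for 19 of 29. The SD was larger than the size of the log2 fold change for 21 of 29 members, against 77.8% of all genes. Fos, at 0.73, lay above the upper quartile of genes of its level (0.29), whereas Hspb1 (0.15), Mcl1 (0.18) and Dnajb1 (0.20) lay among the steadiest members.

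The order of libraries was largely shared by the 24 early response genes outside the heat shock class. In the LTβR-Ig group replicate 4 was highest for 19 of them and replicate 1 lowest for 19, against 25% and 24.6% of all genes. Among controls replicate 3 was highest for 15 and replicate 2 lowest for 16, against 26.3% and 22.8% of all genes. Over all 8 libraries LTβR-Ig replicate 4 was highest for 12 of 29 members, against 12.3% of all genes. Control replicate 2 and LTβR-Ig replicate 1 were each lowest for 10, against 11.5% and 9.87% of all genes. LTβR-Ig replicate 4 was above replicate 1 for 23 of 29 members with a median log2 ratio of 1.04, against 51.1% of all genes and a median of 0.02. Control replicate 3 was above control replicate 2 for 24 of 29 with a median of 0.68, against 48.5% and -0.01. The median log2 fold change between treatments was 0.33 over the members, an unlike measure because it compares groups of 4 libraries. The pairs above are single libraries from opposite ends of a group, chosen after values were seen.

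**Figure D5:**
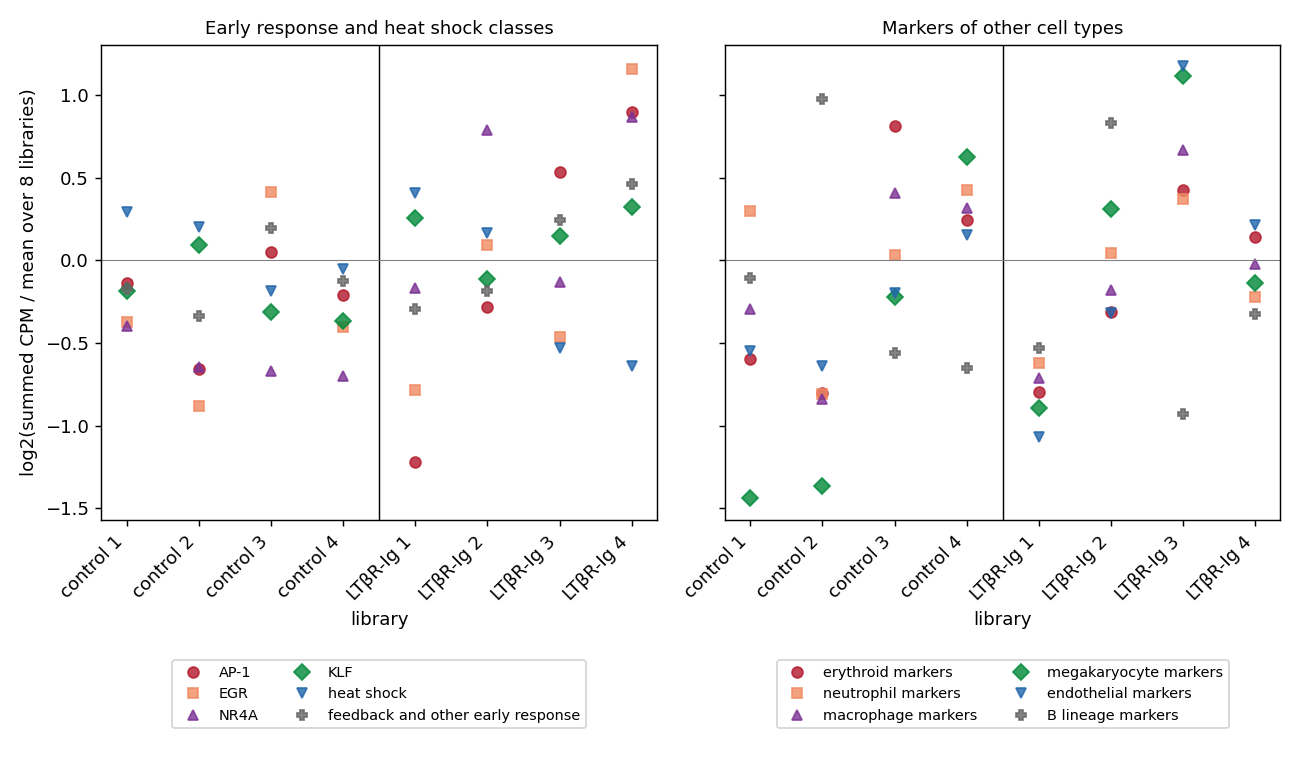
Summed CPM of the 6 classes (left) and of marker lists of 6 other cell types (right) in each library, as log2 of the ratio to the mean over 8 libraries. AP-1 sums are lowest in LTβR-Ig replicate 1 and highest in LTβR-Ig replicate 4. Erythroid, macrophage, neutrophil and endothelial sums are lowest in control replicate 2 and LTβR-Ig replicate 1.

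Markers of other cell types differed between the same libraries. All 10 macrophage markers were tested and their sum was 1412, 969, 2298 and 2161 CPM in control and 1058, 1529, 2753 and 1706 CPM in LTβR-Ig libraries. The 9 erythroid markers found summed to 18057, 15668, 47975 and 32334 CPM in control and 15734, 22034, 36659 and 30175 CPM in LTβR-Ig libraries. Control replicate 2 and LTβR-Ig replicate 1, where the early genes were most often lowest, had the 2 lowest sums of both lists. The same libraries had the 2 lowest sums of the neutrophil and endothelial lists. The lowest megakaryocyte sum was in control replicate 1 and the lowest B lineage sum in LTβR-Ig replicate 3. LTβR-Ig replicate 4, where they were most often highest, had neither the highest macrophage nor the highest erythroid sum. Control replicate 3, highest of the controls for 15 of the 24 early genes, had the highest erythroid sum of all 8 libraries and the highest macrophage sum of the controls. Endothelial markers are given beside Klf2. Megakaryocyte markers had log2 fold changes above 0 for 9 of 9 with a median of 0.63, the largest ratio of sums of the 6 lists (1.54), and neutrophil markers were below 0 for 10 of 10 with a median of -0.18, 2 of them at an unadjusted edgeR p under 0.05. None was called. Megakaryocyte markers summed to 635 to 2655 and 928 to 3726 CPM, neutrophil markers to 3984 to 9364 and 4529 to 9036 CPM, and B lineage markers to 494 to 1522 and 406 to 1378 CPM. The groups overlapped for the sum of each of these 6 lists. Mitochondrial genes took 1.68, 1.41, 1.36 and 1.67% of counts in control replicates 1 to 4 and 1.84, 1.85, 1.68 and 1.35% in LTβR-Ig replicates 1 to 4. The part of these markers and shares in the levels of the early genes was not tested.

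Other genes of the pathway were read from the same fit. Of 19 upstream regulators, 2 had an unadjusted edgeR p under 0.05 on the higher side and 0 on the lower, and 0 were called. Creb1, which encodes the factor that binds the cAMP response element, was at 9.08, 7.80, 7.45 and 5.38 CPM in control and 41.9, 69.6, 71.4 and 11.2 CPM in LTβR-Ig libraries. Its groups did not overlap, and LTβR-Ig replicate 4 lay much closer to the controls than the other LTβR-Ig libraries did. The log2 fold change was 2.71 (SE 0.52, edgeR adjusted p = 0.165). DESeq2 called Creb1 (adjusted p = 4.15e-06), and edgeR called it without LTβR-Ig replicate 4 (log2 fold change 3.04, adjusted p = 0.0282). Mapk14 and Hsf2, of the same list, jumped between libraries given the same treatment. Mapk14 was at 24.1, 45.9, 4.88 and 55.8 CPM in control and 63.3, 3.297, 69.8 and 3.48 CPM in LTβR-Ig libraries. Hsf2 was at 2.81 CPM in control replicate 4 and 24.96 to 37.02 CPM in the rest. Mapk14, Hsf2 and Creb1 had the largest pooled within-group SD of the list (2.08, 1.19 and 0.911). Whether the Creb1 difference reflects such jumps was not tested. The kinase gene Mapk3 had a log2 fold change of 0.27 and Elk4, a partner of serum response factor, 0.20 (edgeR adjusted p = 0.698 and 0.998).

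Among 31 other early response genes tested, an unadjusted edgeR p under 0.05 was reached by 3 on the higher side and 1 on the lower, and 0 were called. Sgk1, a kinase induced by glucocorticoids, was at 89.6, 141, 196 and 126 CPM in control and 59.2, 47.1, 70.4 and 61.8 CPM in LTβR-Ig libraries. All LTβR-Ig libraries lay below all controls, with a log2 fold change of -1.21 (SE 0.23, edgeR adjusted p = 0.166), and DESeq2 called Sgk1 (adjusted p = 0.000301). Rhob, a small GTPase, had 0.42, the antiproliferative gene Tob1 0.46 and the matricellular gene Ccn1 1.17, with edgeR adjusted p of 0.515, 0.649 and 0.681. Ccn1 was at 257 and 356 CPM in LTβR-Ig replicates 2 and 4 and between 76.3 and 93.3 CPM in the other 6 libraries. Fosl1, Arc and Npas4 did not pass the filter. Of 19 other chaperone genes, 0 reached an unadjusted edgeR p under 0.05 on either side, and DESeq2 and limma-voom called 0. Dnaja1, Stip1, Chordc1 and Cryab, those with the smallest p, had log2 fold changes of 0.30, 0.29, 0.20 and 0.59 (edgeR adjusted p = 0.84, 0.931, 0.987 and 0.99), with overlapping groups.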

How the data were processed

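The authors deposited 1 matrix of raw counts per gene, with no normalization, for 8 bulk polyA libraries sequenced as paired reads of 76 bases. Alignment and counting tools, per the submitters' processing notes, were HISAT2 and HTSeq on mm10; their versions, the annotation and the strand option were not given in the sources used here. Symbols, coordinates and exon lengths came from GENCODE M21 on GRCm38 (mm10), and 52403 of 52636 IDs matched without their version.

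Counts were tested with edgeR 4.0.16 in R 4.3.3: TMM scaling, filterByExpr by group (minimum count 10, minimum total 15), robust glmQLFit, no covariate, all 8 libraries, with Benjamini-Hochberg adjustment over 16045 genes at 0.05. The script was tested on simulated counts. Log2 CPM used a prior count of 2. CPM per kb divides by exonic length. Alternatives were other scalings and filters, DESeq2 1.42.0 with and (added after the data were seen) without the low-count filter, limma-voom (limma 3.58.1), a block for replicate number, and dropping each library in turn.

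The members, lists and tests were chosen with earlier results of these data known. Members past the threshold, those whose groups did not overlap, and those with the smallest p or largest spread per class were named by rule. Fos, Fosb, Fosl2, Jun, Junb, Egr1, Hsp90aa1 and most of the feedback genes were given in full after their values were seen. Mapk14 and Hsf2 were also added after their values were seen. Values of 2 listed genes that are not members are not reported here.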

Additional observations from a re-analysis of the deposited data

Results flagged for a closer look

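Gaps between values were examined in 72 groups of 4 libraries (30 members and 6 class sums in each treatment). A value was flagged where its gap to the nearest other library passed a set share of the group's range. In 3 groups a value was flagged, with shares of 0.839 to 0.972. Chance gives a flag for about 1 in 20 groups if the values are normally distributed, which was not checked. Control replicate 3 had 5.59 CPM of Egr2, while control replicates 1, 2 and 4 had 0 to 0.367 CPM. Control replicate 4 had 3.99 CPM of Nr4a3, with 0 to 0.112 CPM in control replicates 1 to 3. For the summed NR4A genes control replicate 1 had 17.7 CPM, and control replicates 2 to 4 had 14.4 to 14.9 CPM. The values of LTβR-Ig replicate 4 and LTβR-Ig replicate 1 that set the range of the AP-1 genes were not among them.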

How the results depend on the processing

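No member was called in 15 of the 16 alternatives run on the whole table (DESeq2 gave no p for Egr2). DESeq2 without the low-count filter, added after the data were seen, called 3, and 1 to 3 with or without its outlier cutoff and independent filtering, while on filtered genes it called 0 under the same 4 settings; the cause was not tested. In all 16 the count of members with a log2 fold change above 0 stayed between 18 and 22. Members higher at an unadjusted p under 0.05 numbered 4 and, without each library in turn, 2 to 4. Members lower numbered 0, with 1 (Hsp90aa1) under the replicate block and 0 to 1 without each library (Gadd45b, without LTβR-Ig replicate 2). Genes called over the whole table were 6, with 201 by DESeq2 and 338 by DESeq2 without the filter (291 to 656 over those settings), 17 by limma-voom, 22 under the strict filter (at least 10 counts in 4 libraries and a mean of 5 CPM), 1 with the replicate block, and 2 to 9 without each library. Calls in the other pathway lists were 0, with 2 by DESeq2 with and without the filter (Creb1 and Sgk1) and 0 to 1 without each library. The EGR median log2 fold change of -0.72 was 0.60 under the strict filter, which left only Egr1, and ran from -0.90 to 0.92 without each library. The other class medians ran without each library from 0.11 to 0.63 (AP-1), 0.81 to 1.25 (NR4A), 0.48 to 1.11 (KLF), 0.083 to 0.49 (heat shock) and -0.034 to 0.14 (feedback). Whether the replicate numbers mark the 4 pairs of the design is not stated. The reported fit has no block for pairing: same-numbered libraries had correlations of their deviations of 0.07, 0.03, 0.05 and 0.00, and 2 of 4 control libraries correlated best with their own number.

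Directions that turned when a library was left out belonged to members near 0 or with few counts. Junb (0.06; range without each library -0.10 to 0.42) had -0.09 and -0.03 without control replicates 2 and 3 and -0.02 and -0.10 without LTβR-Ig replicates 3 and 4. Egr2 (range -3.68 to 1.24) had 1.24 without control replicate 3. Hspa1b (0.03; range -0.30 to 0.49) had -0.09 and -0.26 without control replicates 1 and 4 and -0.30 without LTβR-Ig replicate 2. Ier3 (range -0.49 to 0.033) had 0.02 (control replicate 4 left out) and 0.033 and 0.01 (LTβR-Ig replicates 1 and 2 left out). Ier5 (range -0.21 to 0.10) had 0.10 (control replicate 3 left out) and 0.06 (LTβR-Ig replicate 1 left out). Btg2 (range -0.034 to 0.35) had -0.034 without LTβR-Ig replicate 4, and Socs3 (range -0.16 to 0.29) had -0.02 (control replicate 3 left out) and -0.16 (LTβR-Ig replicate 1 left out). The causes were not tested beyond the loss of the named library.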
